A study of Mus musculus with 12 samples.

Results

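Cortical pyramidal cells were compared between the day of birth and the end of the second postnatal week, from postnatal day 0 (Pyr P0) to postnatal day 12 (Pyr P12). The genes described were all 19937 genes that the platform annotation pairs with a probe set of a single symbol, and all 19937 had a value on every array of the series. The question was which genes change as excitatory neurons of the cortex mature. Pyramidal cells were green fluorescent cells sorted by FACS from the somatosensory cortices of NexCre;RCE:LoxP mice of the C57BL6 strain, with 3 arrays at each age, whose labels give the letters A, B and C and the word biological. In these mice Cre recombinase is made under the control of the Nex (Neurod6) locus, which is active in young excitatory neurons, and switches on a GFP reporter for good, so that cells which used the locus only in the past are sorted as well. Where a second population is used for comparison, it is cortical interneurons sorted in the same way from the cortices of Nkx2-1Cre;RCE:LoxP mice of the same strain, 3 arrays from pups at birth (IN P0) and 3 at postnatal day 10 (IN P10). Nkx2-1 marks progenitors of the medial ganglionic eminence, so this line does not label all interneuron classes. The sources used here do not say how many animals stand behind an array.

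In the days after birth cortical pyramidal cells end their migration, grow dendrites and a long axon, form and prune synapses and change the subunits of their channels and receptors. Excitatory synapses of the newborn cortex rely on NMDA receptors with the GluN2B subunit and gain GluN2A and more AMPA receptors later. The chloride gradient that makes GABA inhibitory is set up over the same days by the transporter KCC2. Firing turns from slow, broad spikes into fast trains as sodium and potassium channels are added.

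All values are RMA signals on the log2 scale, in which a difference of 1 is a 2-fold change. Signals of Pyr P0 arrays correlated with each other, and those of Pyr P12 arrays likewise, at Pearson's r from 0.995 to 0.9984 across genes, and between the ages at 0.9472 to 0.9532. Background was read from olfactory and vomeronasal receptor probe sets, of which 95% lay below 7.13 to 7.45, depending on the array. Above it on all 3 arrays were 13456 genes at P0 and 13225 at P12. Where none of the 3 arrays of an age exceeded it, the gene is called not above background at that age, and changes against it are given as at least N-fold. The female transcript Xist stood at 12.54, 12.56 and 7.28 on the P0 arrays and at 12.35, 12.40 and 11.89 on the P12 arrays, while the Y-linked gene Eif2s3y stood at 10.49, 10.48 and 10.87 and 9.86, 9.98 and 10.21. Replicate C at P0 was thus the only pyramidal array without Xist signal, and the other 5 carried both Xist and Y-linked signal, while the study's methods name males for experiments in vivo. Leaving out that array turned the difference of Xist, which was not called, from 1.42 to -0.33 and left 1198 genes called higher and 677 called lower.

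Of the 19937 genes, 1195 (5.99%) were called higher at P12 and 623 (3.12%) lower, at an adjusted p under 0.05 in limma and a fold change over 2. Among called genes the median change was 1.45 (log2) upward and -1.33 downward. With changes against background taken at their bound, 253 genes rose and 97 fell more than 4-fold, 59 and 23 more than 8-fold, and 11 and 3 more than 16-fold. Without the fold threshold, 6835 genes (34.3%) passed upward and 4065 (20.4%) downward, and over all genes the median difference was 0.07. In every called gene the 3 P0 arrays and the 3 P12 arrays did not overlap. That adds little to a call, since the median SD over genes was 0.085 at P0 and 0.075 at P12, far below the required difference of 1. Genes that were not called can lack overlap too, and their share was not counted. For 93 of the genes called higher the P0 group was not above background, and for 46 of those called lower the P12 group was not. Of called genes with several probe sets, all sets were called the same way in 28 of 57 upward and 24 of 50 downward, and none had a set called the opposite way. In sorted bulk samples such as these, fewer cells of a type and less RNA per cell cannot be told apart in any of these values.

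**Figure D1:**
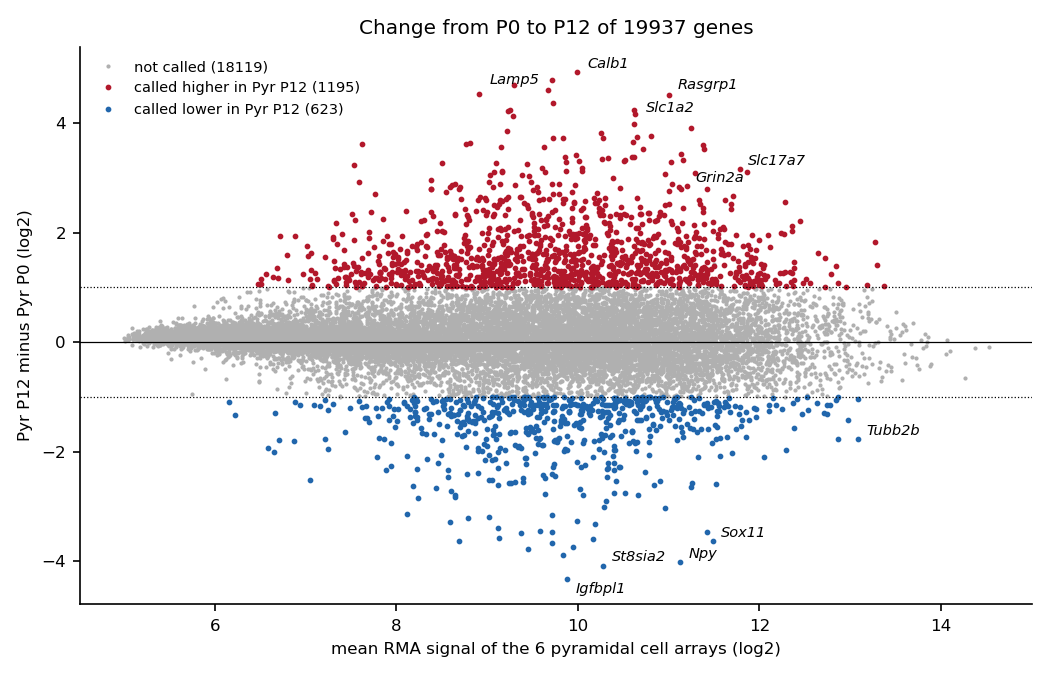
Difference between Pyr P12 and Pyr P0 (log2, y axis) of 19937 genes against their mean RMA signal over the 6 pyramidal cell arrays (log2, x axis). Red points are the 1195 genes called higher, blue points the 623 called lower, grey points genes not called, and dotted lines mark a 2-fold change; Calb1 lies at the top and Igfbpl1 at the bottom.

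The largest rise was that of Calb1, which encodes the calcium buffer calbindin. Its signal was 7.88, 7.96 and 6.74 on the P0 arrays A, B and C and 12.52, 12.41 and 12.44 on the P12 arrays, a rise of 4.93 ± 0.24 (log2, SE) or 30.4-fold (adjusted p = 1.12e-09). The lowest value was that of P0 replicate C, which lay under the background level, and without it the rise was 4.54. Lamp5, a membrane protein of neuronal vesicles and endosomes, stood at 7.22, 7.41 and 7.32 at P0 and 12.25, 12.05 and 12.02 at P12, with 1 of the P0 arrays below background (27.6-fold, adjusted p = 2.36e-13). Rasgrp1, a calcium- and diacylglycerol-activated exchange factor for Ras, was well above background at both ages, at 8.70, 8.84 and 8.72 and then 13.28, 13.31 and 13.19 (22.8-fold, adjusted p = 2.84e-14). All P12 arrays of these genes lay more than 3 units above every P0 array.

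Slc1a2 encodes the glutamate transporter GLT-1, best known from astrocytes and also present in some excitatory neurons. Its signal was 8.50, 8.64 and 8.51 at P0 and 12.70, 12.74 and 12.72 at P12, a rise of 4.17 ± 0.06 (adjusted p = 2.84e-14). The spread within each age was far smaller than the gap. Of the 15 astrocyte genes examined, 2 were called higher, Slc1a2 and Aldh1l1 (1.29), and 0 lower, against 5.99% and 3.12% of all genes. Without the fold threshold 7 passed upward and 3 downward, where 34.3% and 20.4% of all genes did. On all 3 arrays of an age, 8 of the 15 were above background at P0 and 10 at P12. The 4 that were above it on no pyramidal array were Aqp4, Gja1, Gjb6 and Mlc1. The part of astrocyte RNA in the rise of Slc1a2 was not tested. The mean level over the 15 genes was 7.69 to 7.74 on the P0 arrays and 8.08 to 8.17 on the P12 arrays.

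Other genes among the 20 largest rises started at background. Car10, a carbonic anhydrase-related protein that binds neurexins, rose at least 21.4-fold, from 7.02, 7.06 and 6.75 to 11.84, 11.39 and 11.70. Pamr1, a secreted peptidase-domain protein, rose at least 15.4-fold. Car4, a membrane-bound carbonic anhydrase, rose at least 17.7-fold, and Cckbr, the brain receptor of cholecystokinin, at least 17.3-fold, from 7.05, 7.09 and 7.22 to 11.27, 11.40 and 11.36. None of these 4 genes had a P0 array above background, and all 3 P12 arrays of each lay more than 3 units above it. Omg, the oligodendrocyte myelin glycoprotein that neurons also make (4.60), and Lynx1, a membrane-anchored modulator of nicotinic receptors (4.36), rose to a similar extent. The remaining members were Cacng3, Brinp3, Snhg11, Tuba4a, Camk2d, Gm10419, Gpr158, Phyhip, St8sia5 and Gfra2, with changes from 3.72 to 4.24. The probe sets of Snhg11 disagreed in size, since its other set rose by 1.67.

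The largest fall was that of Igfbpl1, a secreted protein related to the binding proteins of insulin-like growth factors. It stood at 12.24, 11.92 and 11.97 at P0 and 7.64, 7.99 and 7.54 at P12, a difference of -4.32 ± 0.13 (adjusted p = 1.26e-11). St8sia2, which adds polysialic acid to the adhesion molecule NCAM in the young brain, fell 17.0-fold, from 12.38, 12.27 and 12.31 to 8.11, 8.37 and 8.24 (adjusted p = 1.63e-13). Kif26b, a kinesin family member, stood at 11.48, 11.43 and 11.45 at P0 and 7.85, 7.87 and 8.22 at P12 (-3.47 ± 0.09, adjusted p = 2.25e-12). Its second probe set fell by 2.50. Each of these genes was high on all 3 P0 arrays and between 7.54 and 8.37 on the P12 arrays.

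Sox11, a transcription factor of newborn neurons, fell by 3.64 but remained more than 2 units above background at P12 (13.45, 13.24 and 13.23 and then 9.67, 9.61 and 9.73). The RNA-binding protein gene Mex3a (-3.89), the mitochondrial folate enzyme gene Aldh1l2 (-3.78), the glypican gene Gpc2 (-3.74) and the tubulin carboxypeptidase gene Vash2 (-3.66) had changes of the same order. Ptprz1, a receptor phosphatase that carries chondroitin sulphate, fell by 3.60, and Draxin, a repulsive guidance ligand of commissural axons, fell by 3.39. Zfp558 fell at least 8.78-fold, B3gnt5 at least 7.3-fold and Syne2, a giant protein that links the nucleus to the cytoskeleton, at least 8.14-fold, since their P12 signals were not above background. Stk32b, Trim67, Ddah2, Frmd4b and Cnn3 completed the group with Npy and Mir181b-1, which are described further on.

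**Figure D2:**
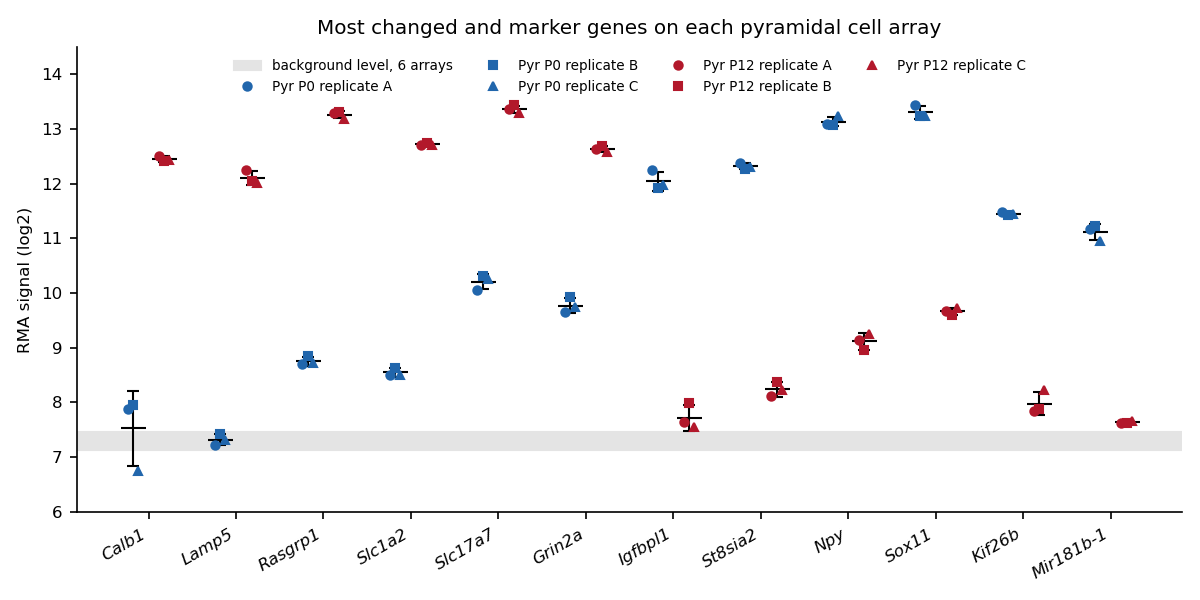
RMA signal (log2, y axis) on each of the 6 pyramidal cell arrays for 12 genes among the most changed and the markers (x axis). Blue symbols are Pyr P0 and red symbols Pyr P12, with a symbol shape per replicate letter, black bars give the mean ± SD of 3 arrays, and the grey band spans the background levels. The ages do not overlap for any gene shown, as for every called gene. The widest spread is that of Calb1 at P0, where replicate C lies at 6.74.

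Markers of the labelled cell type were present at both ages. All 14 genes of an excitatory neuron list were above background on the P0 and the P12 arrays. Of these, 7 rose, 1 fell and 6 were not called, where 5.99% of all genes rose and 3.12% fell. The median difference was 0.97 (all genes, 0.07). Slc17a7, the vesicular glutamate transporter of mature cortex, stood at 10.05, 10.31 and 10.25 at P0 and 13.36, 13.43 and 13.30 at P12 (8.92-fold, adjusted p = 3.6e-11). Slc17a6, the transporter of the younger brain, differed by 0.34 ± 0.15 and was not called (adjusted p = 0.0717). Camk2a, the alpha subunit of the synaptic kinase CaMKII, rose 8.56-fold, from 10.24, 10.43 and 10.28 to 13.37, 13.45 and 13.42. The neuritin gene Nrn1 (3.18), the kinase gene Camk4 (2.36), the peptide gene Cck (2.03), the calmodulin-binding protein gene Nrgn (1.99) and the kinase gene Ptk2b (1.31) also rose. Neurod6, whose locus drives Cre in this line, fell, from 12.46, 12.27 and 12.19 to 10.86, 10.58 and 10.84 (-1.55 ± 0.14, adjusted p = 4.51e-07). The related factor Neurod2 differed by -0.67 and was not called.

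Transcription factors and other genes that mark cortical layers moved mostly the other way. Of 24 measured, 8 fell, 1 rose and 15 were not called, where 3.12% of all genes fell and 5.99% rose. The median was -0.60. Without the fold threshold 15 passed the adjusted p downward, where 20.4% of all genes did. Sox5, a factor of early born deep layer neurons, stood at 11.96, 11.90 and 12.05 at P0 and 10.29, 10.32 and 10.35 at P12 (-1.65 ± 0.10, adjusted p = 1.09e-08). Bcl11b (CTIP2), which marks subcortically projecting neurons, fell by 1.14, Tle4, a layer 6 corepressor, by 1.29, Foxp2 by 1.16 and Lhx2 by 1.25. Of the upper layer POU factors, Pou3f2 fell by 1.33 and Pou3f3 by 1.29, while the cofactor gene Ldb2 fell by 1.32. Cux1 and Cux2, markers of layers 2 to 4, differed by 0.03 and 0.43, and Tbr1 and Fezf2, of deep layers, by -0.69 and -0.58, none of them called. Rorb, a marker of layer 4 neurons, was the member called higher, at 11.20, 11.17 and 11.26 and then 12.21, 12.27 and 12.25 (1.03 ± 0.12, adjusted p = 3.99e-06). That call lay at the fold threshold, with differences of 1.00 and 0.99 and no call after centring each array or a second quantile normalization. All 24 layer genes measured were above background on all 3 arrays at both ages.

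Glutamate receptor genes changed by subunit. Grin2a, which encodes GluN2A, was the NMDA receptor gene called, out of 6 measured. It stood at 9.66, 9.92 and 9.74 at P0 and 12.63, 12.68 and 12.58 at P12 (7.25-fold, adjusted p = 2.5e-10). Grin2b, for GluN2B, differed by 0.41 ± 0.06, a difference past the adjusted p (8.87e-05) and under the fold threshold, from 12.40, 12.37 and 12.49 to 12.80, 12.90 and 12.81. Grin2c, Grin2d, Grin3a and Grin3b lay between -0.18 and 0.57 and were not called.

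Among 15 AMPA receptor subunits and auxiliary proteins, 4 rose and 1 fell, where 5.99% of all genes rose and 3.12% fell. The auxiliary subunits moved most and in opposite directions. Cacng3, for TARP gamma-3, stood at 8.69, 8.75 and 8.04 at P0 and 12.80, 12.71 and 12.69 at P12, an 18.9-fold rise (adjusted p = 1.9e-11). Cacng4, for TARP gamma-4, fell from 12.35, 12.35 and 12.50 to 10.50, 10.40 and 10.78 (-1.84 ± 0.09, adjusted p = 8.6e-10). Cacng2, for stargazin, rose by 1.53, Shisa6 by 1.44 and the pore subunit gene Gria1 by 1.17. Gria2, whose subunit limits calcium entry, differed by -0.43 and was not called. Of 14 kainate and metabotropic receptor genes, 5 rose and 0 fell, led by the kainate subunit gene Grik1 (2.59) and the presynaptic receptor gene Grm4 (2.09), with Neto1, Grm7 and Grm2 between 1.24 and 1.46.

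Postsynaptic scaffolds and kinases followed. Of 19 scaffold genes, 7 rose and 1 fell, where 5.99% of all genes rose and 3.12% fell. Of these 19, 17 passed the adjusted p upward, where 34.3% of all genes did. Dlg4, for PSD-95, stood at 11.76, 11.81 and 11.88 at P0 and 12.92, 12.95 and 12.97 at P12 (1.13 ± 0.05), and the scaffold gene Dlgap2 rose 3.99-fold. Homer3 was the scaffold gene that fell, by 1.25. Among 20 calcium- and calmodulin-dependent kinases, phosphatases and their regulators, 11 rose and 0 fell, with a median of 1.06. Camk2d rose 14.4-fold, from 7.35, 7.49 and 7.07, where replicate C was below background, to 11.02, 11.24 and 11.18. The spine kinase gene Itpka rose by 2.89, the phosphodiesterase gene Pde1a by 2.58 and Camk2n1, for a CaMKII inhibitor, by 2.56.

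On the presynaptic side, 14 of 36 vesicle release and active zone genes rose and 0 fell, with a median of 0.86. Over all genes 5.99% rose and 3.12% fell. Of these 36, 29 passed the adjusted p upward, where 34.3% of all genes did. Syt17 and Syt13, of the synaptotagmin family, rose by 2.86 and 2.81. Syn2, for the vesicle-binding protein synapsin II, stood at 10.20, 10.30 and 10.08 at P0 and 12.58, 12.58 and 12.52 at P12 (5.16-fold). Syp, for the vesicle protein synaptophysin, rose 4.33-fold, from 11.23, 11.47 and 11.22 to 13.45, 13.37 and 13.44. Smaller rises were those of the SNARE gene Snap25 (1.40) and the calcium sensor gene Syt1 (1.03). Of 24 synaptic organizers, 8 rose and 0 fell: C1ql3, a secreted organizer, by 3.11, the pentraxin genes Nptx2 and Nptx1 by 2.58 and 2.05, Slitrk3 by 2.33, Nrxn3 by 1.83, Il1rapl1 by 1.79, Cbln2 by 1.54 and Lrrtm4 by 1.23.

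Genes for inhibition changed in part. Of 12 GABA receptor and inhibitory postsynapse genes, 5 rose and 0 fell, where 5.99% of all genes rose and 3.12% fell. Gabra4 stood at 9.63, 9.75 and 9.49 at P0 and 12.49, 12.35 and 12.32 at P12 (6.79-fold), and Gabrd, whose subunit is found in extrasynaptic receptors, at 8.40, 8.33 and 8.39 and then 11.07, 10.96 and 10.92 (6.09-fold). Gabra2 (0.34) and Gabra3 (0.96), of the alpha subunits, were not called. Slc12a5, for the chloride exporter KCC2, rose from 9.66, 9.88 and 9.70 to 12.55, 12.53 and 12.53 (2.79 ± 0.06, adjusted p = 7.37e-13). Slc12a2, for the chloride importer NKCC1, went from 10.60, 10.67 and 10.51 to 10.02, 10.16 and 10.21, a difference of -0.46 ± 0.07 that passed the adjusted p (3.9e-05) and not the fold threshold. Car7, for a cytosolic carbonic anhydrase that supplies bicarbonate, rose 10.1-fold. Slc4a10 rose by 1.30, and Wnk3, a kinase gene that acts on these transporters, fell by 1.14.

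Ion channel genes rose in large number. Of 36 voltage-gated potassium channel genes, 20 rose and 0 fell, with a median of 1.34, against 5.99% of all genes called higher. Kcns2, a silent subunit that modifies Kv2 channels, stood at 7.33, 7.39 and 7.51 at P0 and 10.09, 10.03 and 9.94 at P12 (6.13-fold), and Kcnh1, for the EAG channel, at 9.76, 10.22 and 10.13 and then 12.54, 12.72 and 12.65 (6.04-fold). Kcnh5 and Kcnf1 rose by 2.53 and 2.28, the axonal Kv1 genes Kcna2 and Kcna1 by 2.18 and 1.82, and Kcnip2, for a subunit of A-type channels, by 2.17. Of 19 other potassium channel genes, 10 rose, among them Kcnj9 (2.74) and Kcnj6 (2.33), for channels gated by G proteins, and the leak channel gene Kcnk4 (2.59). Kcnj2, for an inward rectifier, fell by 1.17.

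Of 11 sodium channel genes, 4 rose and 1 fell, where 5.99% of all genes rose and 3.12% fell. The accessory subunit gene Scn2b stood at 8.09 ± 0.08 (SD, n = 3) at P0 and 11.19 ± 0.07 at P12, a rise of 3.10. Scn1a and Scn8a, for channels of the mature brain, rose by 1.78 and 1.40, while the embryonic Scn3a differed by -0.57 and was not called. Scn9a fell by 1.37. Among calcium channel genes 4 of 14 rose, including Cacna1a (1.67), for the P/Q-type channel of release sites, and Cacna1h, for a T-type channel, fell by 1.63. Of 4 HCN channel genes, Hcn2 rose by 1.28 and Pex5l, for the HCN partner TRIP8b, by 2.57, and 0 fell, against 1, Hcn4, without P0 replicate B or P12 replicate C. Of 12 pump and exchanger genes 6 rose, led by Slc24a2, a sodium-calcium-potassium exchanger, at 8.75, 9.01 and 9.09 and then 12.59, 12.47 and 12.38 (11.6-fold). Of 18 calcium buffers and sensors 5 rose, Calb1, Necab3 and, of the visinin family, Hpca (2.22), Hpcal4 (1.88) and Vsnl1 (1.83), while Hpcal1 (-0.50), Ncald (0.71) and Ncs1 (-0.38) of that family were not called.

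**Figure D3:**
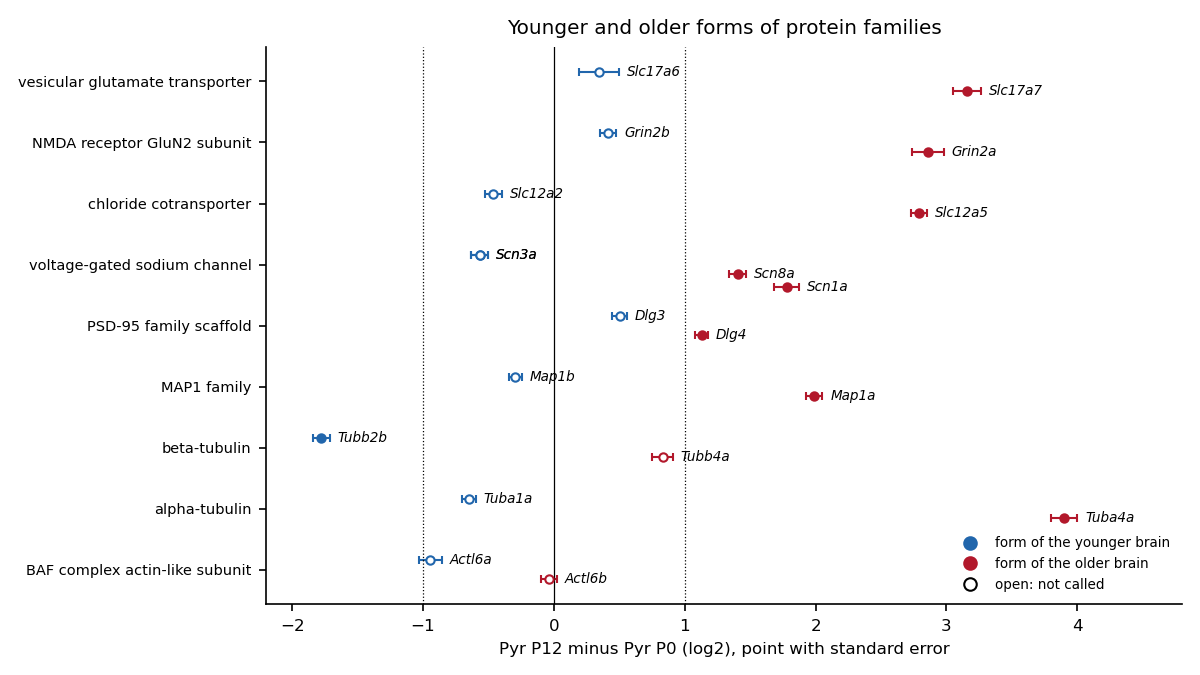
Difference between Pyr P12 and Pyr P0 (log2, x axis) of textbook younger (blue) and older (red) forms within protein families (y axis), as points with the standard error from limma. Filled points were called and open points were not, dotted lines mark a 2-fold change, and Slc17a7, Grin2a, Slc12a5, Map1a and Tuba4a rose while the younger forms of their families were not called.

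Subunit changes were also read as pairs of younger and older forms. In 7 of 9 families with both forms measured the older form was called higher, and of the younger forms shown only that of beta-tubulin was called, with Tubb2b at 13.96, 14.00 and 13.96 at P0 and 12.13, 12.09 and 12.36 at P12 (-1.78 ± 0.07). The alpha-tubulin gene Tuba4a rose 14.9-fold, from 9.19, 9.40 and 9.31 to 13.20, 13.27 and 13.14, beside -0.65 for Tuba1a. The microtubule protein gene Map1a rose by 1.99, beside -0.29 for Map1b. Actl6a and Actl6b, alternative subunits of the BAF chromatin complex, differed by -0.95 and -0.04, neither called. Actl6a passed the adjusted p (6.48e-07 in limma) and missed the fold threshold, as did Tuba1a, Map1b and Scn3a. Actl6b passed neither (adjusted p = 0.622). Levels of the forms of a pair were not compared, because probe sets differ in their brightness.

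Genes induced by neuronal activity were examined as a group. Of 24 such genes, 12 rose, 1 fell and 11 were not called, where 5.99% of all genes rose and 3.12% fell. The median was 1.06. Npas4, a factor induced by calcium entry, stood at 7.81, 8.19 and 8.08 at P0 and 10.67, 10.97 and 11.18 at P12 (7.55-fold, adjusted p = 4.01e-10). Nr4a1, a nuclear receptor of the immediate early class, stood at 8.99, 9.03 and 9.11 and then 11.42, 11.64 and 11.60 (5.69-fold). Egr1, also an immediate early factor, stood at 8.98, 9.50 and 9.27 and then 11.56, 11.98 and 11.60 (5.52-fold, adjusted p = 1.56e-08). Arc, a dendritic protein, rose by 2.33, and Fos, a subunit of the AP-1 factor, by 1.40, while Jun, its partner, fell from 11.97, 12.02 and 11.10 to 10.50, 10.42 and 10.55, with replicate C lowest at P0. Bdnf differed by 0.80 and was not called. Cells were dissociated with papain before sorting, which can itself induce some of these genes. Among 16 stress genes of dissociation 2 rose, Fos and Hsph1 (1.16), and 1 fell, Jun, and the part of dissociation in these values was not tested.

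The stretch upstream of 3 of these genes is shown because they rose together and because such promoters are known for sites of the factor CREB. Each run is 250 bases before the RefSeq start on GRCm38.p6, 5′ to 3′ on the gene's strand, and capitals mark the letters TGACG, the core of the cyclic AMP response element, or their reverse complement CGTCA.
Fos (chr12:85473640-85473889, plus strand): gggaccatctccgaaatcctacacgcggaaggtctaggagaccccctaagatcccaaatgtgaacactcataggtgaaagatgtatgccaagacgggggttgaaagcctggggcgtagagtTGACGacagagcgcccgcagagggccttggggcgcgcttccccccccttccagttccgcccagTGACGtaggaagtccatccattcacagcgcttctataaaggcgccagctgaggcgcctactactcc
Npas4 (chr19:4989972-4990221, minus strand): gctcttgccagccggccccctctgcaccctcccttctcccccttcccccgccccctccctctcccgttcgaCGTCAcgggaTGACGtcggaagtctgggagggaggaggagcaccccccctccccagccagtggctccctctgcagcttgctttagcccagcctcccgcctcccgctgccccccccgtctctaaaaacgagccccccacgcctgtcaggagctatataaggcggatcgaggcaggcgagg
Nr4a1 (chr15:101266596-101266845, plus strand): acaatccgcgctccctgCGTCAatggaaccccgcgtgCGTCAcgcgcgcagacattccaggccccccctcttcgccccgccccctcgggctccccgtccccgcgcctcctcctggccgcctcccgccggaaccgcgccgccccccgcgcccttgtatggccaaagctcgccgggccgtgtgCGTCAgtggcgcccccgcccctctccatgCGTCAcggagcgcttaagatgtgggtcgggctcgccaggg
The letters occurred 2 times before Fos, 2 times before Npas4 and 4 times before Nr4a1. Over all 32851 windows of that length in the RefSeq table, 17.8% held them on at least 1 strand, and among windows of the activity-regulated list 16 of 30, from 18 genes of which some have several starts. Among windows of called genes the share was 21.6% upward and 19.2% downward, and 25.8% for genes above background that were not called. A match of letters is a description and no measured site.

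Many genes of immature neurons fell. Of 24 measured, 11 fell, 0 rose and 13 were not called, with a median of -0.75, against 3.12% of all genes called lower. Sox4, the partner of Sox11, fell from 12.29, 12.16 and 12.09 to 9.61, 9.58 and 9.71 (5.84-fold), and Nnat, an imprinted gene of newborn neurons, fell 6.03-fold. The microtubule protein gene Dcx stood at 13.42, 13.32 and 13.34 at P0 and 12.13, 11.90 and 12.17 at P12, a 2.45-fold fall that left a high signal. Cd24a fell by 1.78, Dpysl3 by 1.42 and Tubb3 by 1.11. Gap43 (-0.15) and Stmn2 (-0.07), genes of growth cones, were not called.

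Axon guidance genes split between the directions, with 9 of 52 higher and 11 lower, where 5.99% of all genes rose and 3.12% fell. The semaphorin receptor genes Plxnb1 (-2.41) and Nrp1 (-1.84), the ephrin receptor gene Epha3 (-2.30) and the Slit receptor gene Robo1 (-2.10) fell. Robo1 went from 12.39, 12.33 and 12.40 to 10.13, 10.32 and 10.36. Robo3, a divergent member of that family, rose by 2.75, with 1 of the P0 arrays above background, from 6.97, 7.22 and 7.33 to 9.82, 9.78 and 10.16. Ephb3 rose by 2.29 and the ligand genes Slit3 and Slit2 by 2.04 and 1.36. The ligand gene Sema3c fell, from 10.60, 10.31 and 10.10 to 8.84, 8.68 and 8.55.

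Among 37 tubulin, microtubule and kinesin genes 7 rose and 6 fell, where 5.99% of all genes rose and 3.12% fell. The microtubule-binding protein gene Map7 rose by 2.34. Of 18 genes of neurofilaments and axonal domains, 5 rose and 2 fell. Cntnap1, for the Caspr protein of the node of Ranvier, rose at least 10.6-fold from P0 values of 6.76, 7.10 and 7.12 to 10.38, 10.69 and 10.84, and Nefl, for the light neurofilament, rose 6.33-fold. Cntn2, for an adhesion molecule of growing axons, fell by 2.08 and Vim by 1.76. Of 28 cadherin and protocadherin genes 4 rose, led by Pcdh11x (2.61), and 3 fell. Of 38 extracellular matrix genes 5 rose and 4 fell. Vcan, for the proteoglycan versican, stood at 12.49, 12.46 and 12.48 at P0 and 9.31, 9.36 and 9.68 at P12 (8.17-fold lower), and Spock3, for a testican, rose 8.3-fold.

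**Figure D4:**
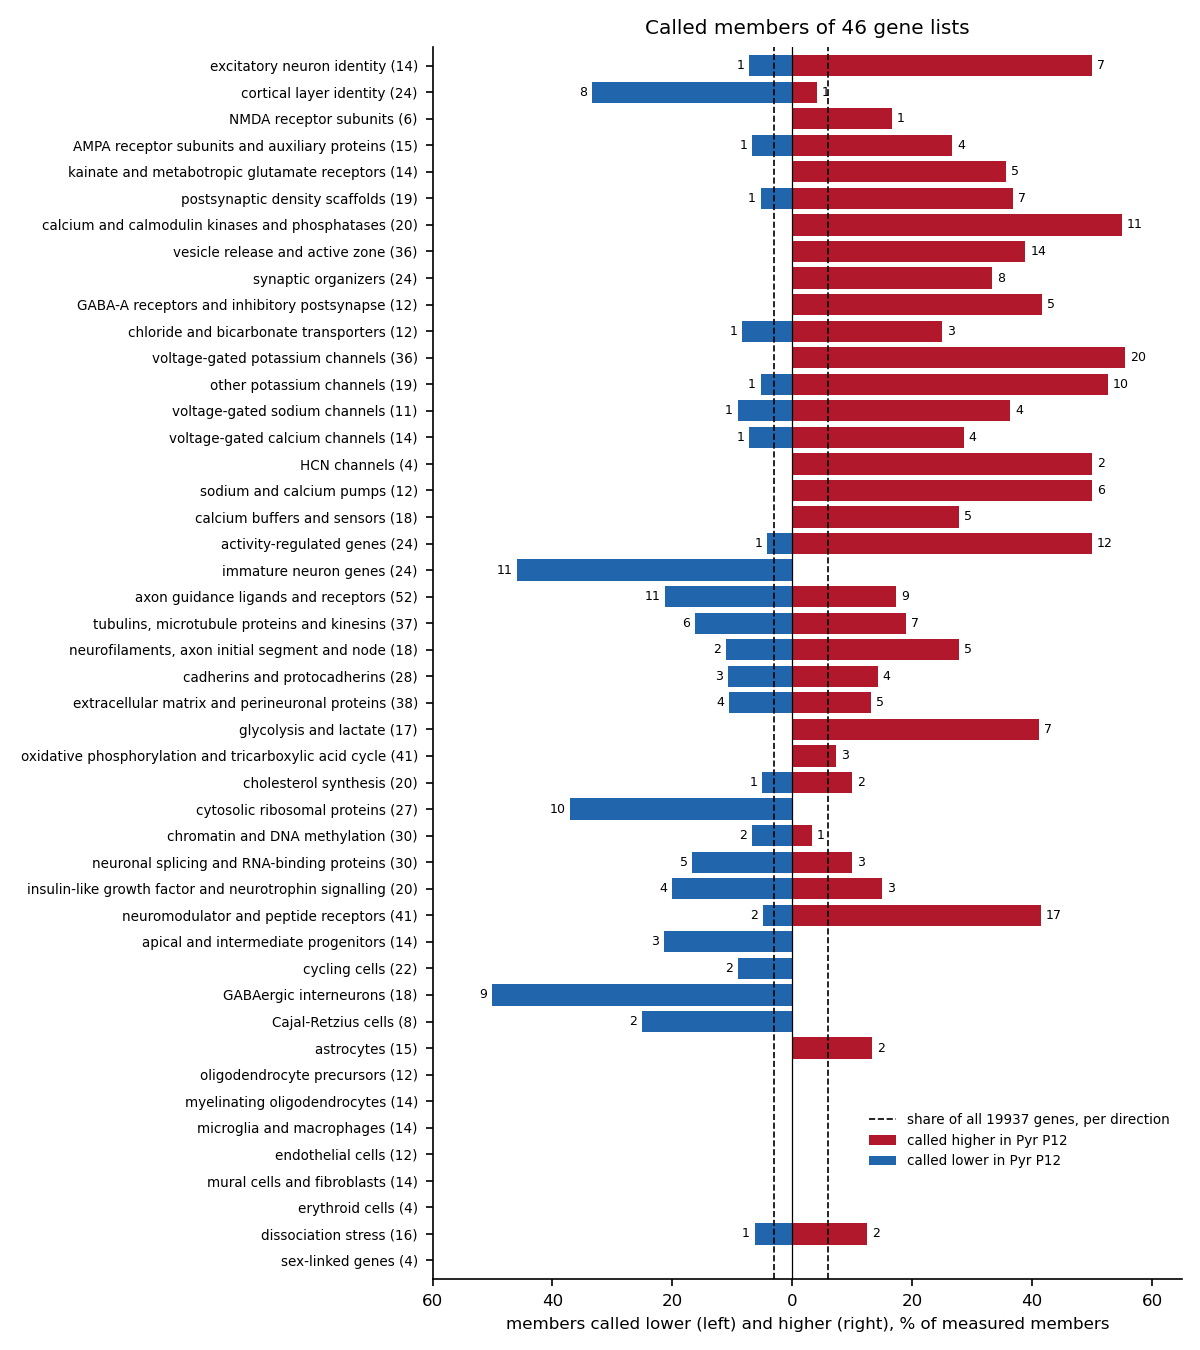
Share of measured members (x axis, %) called higher (red, to the right) and lower (blue, to the left) in Pyr P12 against Pyr P0 for 46 gene lists (y axis, number of members in brackets), with the number of called members at each bar. Dashed lines mark the shares over all 19937 genes, 5.99% higher and 3.12% lower; voltage-gated potassium channels (20 of 36) and calcium- and calmodulin-dependent kinases (11 of 20) extend far to the right, and GABAergic interneuron genes (9 of 18) and immature neuron genes (11 of 24) far to the left.

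In glycolysis and lactate handling 7 of 17 genes rose and 0 fell, with Eno2, the neuronal enolase, at 10.07, 10.29 and 10.27 and then 12.41, 12.36 and 12.27 (4.39-fold) and Aldoa at 3.94-fold. Slc2a3, the neuronal glucose transporter gene, rose by 1.76. Of 41 genes of oxidative phosphorylation and the tricarboxylic acid cycle 3 were called, all higher: Ppargc1a, a coactivator of mitochondrial genes (1.37), Mdh1 (1.29) and Atp5g1 (1.08). That count lay near the 5.99% of all genes called higher. Without the fold threshold 38 of the 41 passed upward, where 34.3% of all genes did, and 0 downward, with a median of 0.50. Atp5g1 lost its call when its probe sets were averaged (0.46), and without P0 replicate B or P12 replicate C 5 of the 41 were called higher.

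Cytosolic ribosomal protein genes were lower at P12. Of 27 measured, 10 fell and 0 rose, and 25 passed the adjusted p downward, where 20.4% of all genes did, with a median of -0.76. Rps20 stood at 13.47, 13.47 and 13.26 at P0 and 12.06, 12.11 and 12.09 at P12 (2.49-fold lower). Rps12 and Rpl13 lost their calls when probe sets of the gene were averaged, at -0.95 and -0.74. Many ribosomal protein genes have processed copies in the genome whose sequence their probes can share, and that part was not tested.

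Among 30 chromatin genes 1 rose and 2 fell, counts near the 5.99% of all genes called higher and the 3.12% called lower. Ezh2, the methyltransferase of the Polycomb complex, fell 6.78-fold, from 12.04, 11.86 and 11.81 to 9.01, 9.28 and 9.13, and Dnmt3a, a DNA methyltransferase of maturing neurons, rose 2.8-fold, from 9.93, 10.03 and 9.94 to 11.39, 11.54 and 11.43. Of 30 splicing and RNA-binding protein genes 3 rose and 5 fell. Mbnl2, for a muscleblind splicing factor, rose 8.56-fold, from 9.67, 9.87 and 9.69 to 12.78, 12.96 and 12.78. Msi1 fell by 2.29 and Igf2bp3 at least 3.26-fold. Igf2bp1 fell at least 4.04-fold by its brighter probe set, whereas its other set differed by -0.05. Cholesterol synthesis genes had 2 of 20 higher and 1 lower, also near the shares over all genes, and the neuronal cholesterol hydroxylase gene Cyp46a1 rose 4.1-fold.

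Receptors for neuromodulators and peptides were among the lists with many rises, 17 of 41, with 2 lower. Over all genes 5.99% rose and 3.12% fell. Chrm3, a muscarinic receptor gene, stood at 8.70, 8.89 and 8.45 at P0 and 11.25, 11.27 and 11.16 at P12 (5.84-fold), and Chrm4 and Chrm1 rose by 2.07 and 1.88. The somatostatin receptor gene Sstr4 rose by 2.38, the serotonin receptor gene Htr2a by 1.81 and the opioid receptor gene Oprk1, not above background at P0, at least 2.28-fold. Cnr1, for the cannabinoid receptor CB1, was the larger of the falls, from 11.61, 11.54 and 11.55 to 9.28, 9.27 and 9.13 (5.07-fold), beside Chrna5 (-1.43). In insulin-like growth factor and neurotrophin signalling 3 of 20 genes rose and 4 fell. Gfra2, a coreceptor for neurturin, rose 13.2-fold, from 7.93, 8.15 and 7.85 to 11.75, 11.74 and 11.60. Igfbp4 rose by 1.97 and Igfbp5 by 1.27, while Igfbp2 (-1.77) and Igfbp3 (-1.63) fell.

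MicroRNA loci were measured through probe sets that report RNA of the locus, which can be the precursor or a host transcript. Mature microRNA was not measured. Of 300 such loci, 126 were above background on all arrays of at least 1 age, 5 were called higher and 19 lower. Over all genes 5.99% were called higher and 3.12% lower. Mature sequences from RefSeq (GRCm38.p6) are shown for loci among the called ones, 1 arm each, to let the seeds be compared. Capitals mark the seed, bases 2 to 8.
miR-181b-5p (Mir181b-1, chr1:137966650-137966673, plus strand): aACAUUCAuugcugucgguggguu
miR-181a-5p (Mir181a-1, chr1:137966468-137966490, plus strand): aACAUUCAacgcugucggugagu
let-7c-5p (Mirlet7c-1, chr16:77599672-77599693, plus strand): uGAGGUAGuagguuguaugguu
let-7e-5p (Mirlet7e, chr17:17830366-17830387, plus strand): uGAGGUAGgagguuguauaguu
miR-99a-5p (Mir99a, chr16:77598940-77598961, plus strand): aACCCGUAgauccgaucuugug
miR-125b-5p (Mir125b-1, chr9:41581940-41581961, plus strand): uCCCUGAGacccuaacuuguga
miR-9-5p (Mir9-1, chr3:88215613-88215635, plus strand): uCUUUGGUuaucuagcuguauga
miR-137-3p (Mir137, chr3:118433901-118433923, plus strand): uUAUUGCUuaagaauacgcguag
miR-128-3p (Mir128-1, chr1:128202404-128202424, plus strand): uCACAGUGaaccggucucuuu
miR-539-5p (Mir539, chr12:109728136-109728157, plus strand): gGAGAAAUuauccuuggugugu
The loci of miR-181b and miR-181a share the seed ACAUUCA and lie within a kilobase of each other, and both let-7 loci share GAGGUAG. Mir181b-1 stood at 11.17, 11.22 and 10.96 at P0 and 7.62, 7.62 and 7.66 at P12 (11.2-fold lower, adjusted p = 5.93e-11). Mir181a-1 was near background, with 1 of the P0 arrays above it (7.26, 7.05 and 6.38 and then 5.56, 5.65 and 5.46). Mirlet7c-1 and Mir99a, neighbours on the same strand, both fell, Mirlet7c-1 at least 1.91-fold and Mir99a by a log2 difference of -2.67. Mirlet7e fell by 1.05.

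Mir9-1, of a microRNA known from neural progenitors and young neurons, stood at 11.70, 11.67 and 11.68 at P0 and 9.13, 9.33 and 8.98 at P12 (5.82-fold lower). Mir9-3, which yields the same mature sequence, fell at least 1.84-fold. Mir137 fell at least 5.0-fold, from 9.82, 9.60 and 9.65 to 6.42, 6.66 and 6.56, with no P12 array above background, and Mir125b-1 fell at least 1.82-fold. Mir18, Mir19b-1 and Mir20a, of the cluster known as miR-17-92, were called lower, of which Mir20a was not above background on any pyramidal array. In the other direction, Mir128-1 stood at 9.42, 9.19 and 9.43 at P0 and 10.81, 10.83 and 11.19 at P12 (3.03-fold higher, adjusted p = 3.53e-07). The other loci called higher, Mir300, Mir382, Mir487b and Mir539, rose by 1.14 to 1.42 and all lie in the imprinted microRNA cluster of chromosome 12.

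Genes of other cell types were examined in the same arrays. Of 18 interneuron genes, 9 fell and 0 rose from P0 to P12, where 3.12% of all genes fell and 5.99% rose. The median was -0.96. The mean level over the 18 was 8.60 to 8.91 on the P0 arrays and 7.59 to 7.67 on the P12 arrays, beside 10.69 to 10.73 on the IN P0 arrays. Npy, for neuropeptide Y, fell 16.2-fold, from 13.09, 13.08 and 13.23 to 9.14, 8.96 and 9.25 (adjusted p = 9.97e-12). Its P0 signal in pyramidal cells lay above that of all 3 IN P0 arrays (12.38, 12.51 and 12.01), unlike the other members that fell. Erbb4, a neuregulin receptor, fell at least 6.36-fold, from 10.11, 10.34 and 9.66 to 7.12, 7.34 and 7.27, and stood at 13.42, 13.34 and 13.41 in IN P0. Dlx1, an interneuron transcription factor, fell from 9.99, 10.01 and 9.42 to 7.78, 6.97 and 7.26, Gad2, for a GABA-synthesizing enzyme, from 8.96, 9.04 and 8.28 to 7.32, 7.09 and 7.22, and Gad1 from 9.59, 9.76 and 9.40 to 8.62, 8.40 and 8.44. In each of the 9 genes that fell except Npy, replicate C was the lowest of the P0 arrays. Without that array 10 of the 18 were called lower, and without P0 replicate A, P0 replicate B or P12 replicate A 8, since Maf (-1.01) lost its call. Which cells carried these transcripts was not tested.

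Progenitor and cell cycle genes included a few that fell, where 3.12% of all genes were called lower. Of 14 progenitor genes 3 fell, Vim, Sox2 (-1.35) and Insm1 (-1.30), and 0 rose, and 9 passed the adjusted p downward. Of 22 cell cycle genes 2 fell, Rrm2 (-1.49) and Ccnb2 (-1.10), and 9 passed the adjusted p downward, where 20.4% of all genes did. Of these 22, Mki67 and Top2a differed by -0.02 and -0.18. Of 8 genes of Cajal-Retzius cells 2 fell, Reln (-1.58) and Ndnf (-1.22), which interneurons share. No gene was called in the lists of erythroid cells (4 genes), oligodendrocyte precursors (12), myelinating oligodendrocytes (14), endothelium (12), mural cells with fibroblasts (14) and microglia with macrophages (14). Without the fold threshold limma passed from 0 to 7 genes of each of these lists upward and 0 or 1 downward, and at an unadjusted p under 0.05 up to 8 and 1. The 7 were among the 14 genes of microglia with macrophages. Over all genes 34.3% passed upward and 20.4% downward without the fold threshold. SAM, which uses the same differences and fold threshold and called the same genes as limma, called 0 genes of these lists and adds no separate evidence. The mean levels of these 6 lists ran from 7.03 to 7.92 on the P0 arrays and 7.18 to 7.91 on the P12 arrays. Above background on all 3 arrays were 10 of 12 genes of oligodendrocyte precursors at P0 and 9 at P12, 8 and 7 of 14 of myelinating oligodendrocytes, 9 and 8 of 14 of mural cells, 7 and 6 of 12 of endothelium, 4 and 5 of 14 of microglia, and 1 of 4 of erythroid cells at both ages. In all other lists with 0 called in a direction, the 0 of SAM again followed from the shared differences and threshold. At most 4 members of such a list passed an unadjusted p under 0.05 in limma in that direction.

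Interneurons served to ask which of the changes differed from those of another cortical neuron over a similar time, with the reservation that the later ages were P12 and P10. The difference between the changes was called for 967 of 19937 genes (4.85%), of which 517 were more positive and 450 more negative in pyramidal cells. In interneurons alone, 886 genes (4.44%) were called higher at P10 and 495 (2.48%) lower. Of the 1195 genes called higher in Pyr P12, 504 were also called higher in IN P10 and 4 lower, and the difference was called more positive in pyramidal cells for 386 and more negative for 10. Of the 623 called lower, 256 were also called lower in IN P10 and 11 higher, with 191 differences more negative and 4 more positive. Those counts are read with the choice in mind, since genes called in pyramidal cells tend to show the larger change there.

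Kif26b stood at 10.27, 10.42 and 10.28 in IN P0 and 10.14, 10.24 and 10.19 in IN P10, a change of -0.13, and differed from its fall in pyramidal cells by -3.34 ± 0.12 (adjusted p = 5.49e-10). Slc1a2 changed by 0.51 in interneurons, a difference of 3.66 ± 0.08. Cacng3 was already high in IN P0 (12.24, 12.26 and 12.28) and changed by 0.29 there (difference 3.94). Calb1 rose in both, by 1.79 in interneurons, with a difference of 3.14 ± 0.34, and Igfbpl1 fell in both (-2.70 in interneurons, difference -1.62). Lynx1 (4.95 in interneurons), Tuba4a (4.23), Sox11 (-2.80) and Mir181b-1 (-3.57) were called in both populations, and the difference between their changes was not called. For Sox11 (-0.84, adjusted p = 1.08e-05 in limma) and Lynx1 (-0.59, adjusted p = 0.000591) that difference passed the adjusted p and missed the fold threshold. For Tuba4a (adjusted p = 0.0998) and Mir181b-1 (adjusted p = 0.766) it passed neither. Of the 20 largest rises the difference was called for 18, and of the 20 largest falls for 15, as drawn in the plot of both populations.

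**Figure D5:**
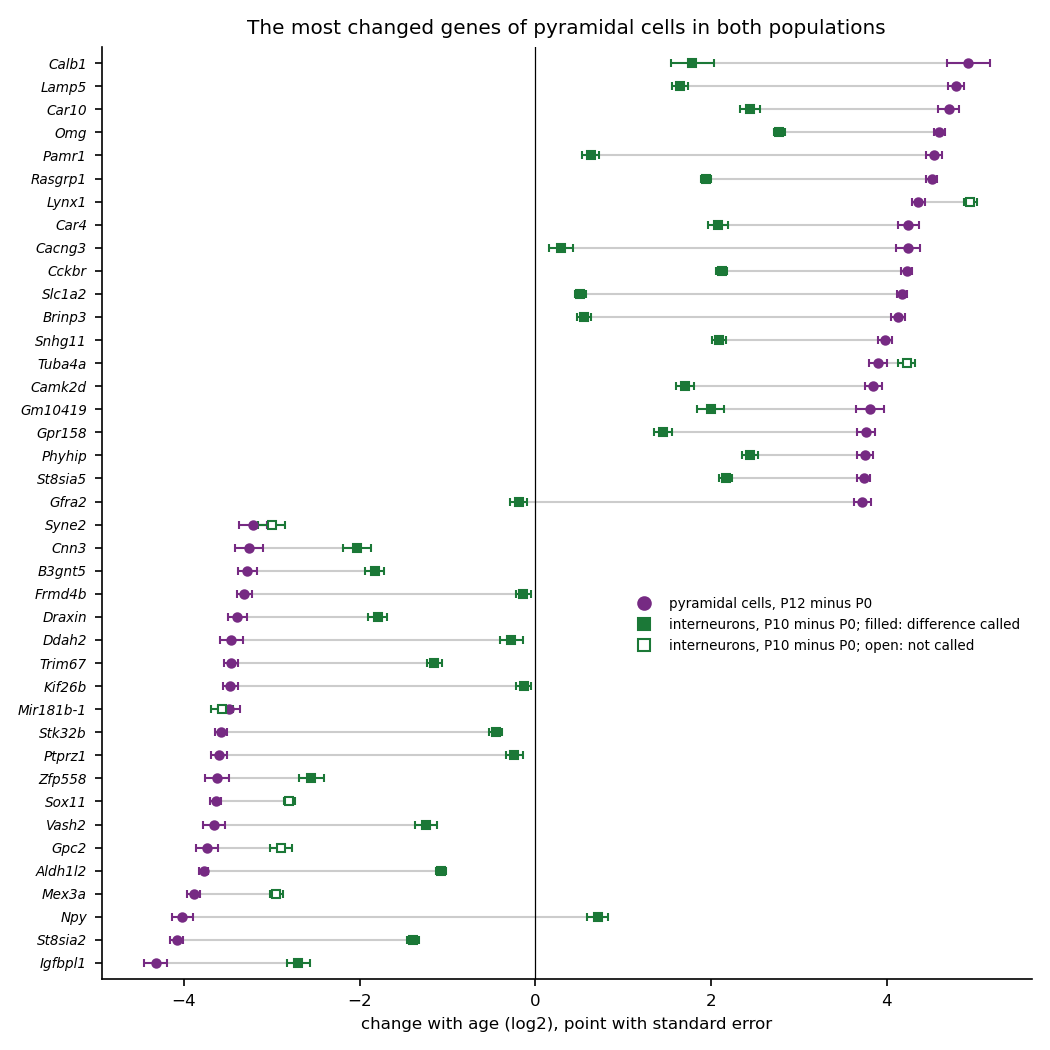
Change with age (log2, x axis) of the 20 genes with the largest rise and the 20 with the largest fall in pyramidal cells (y axis), as points with standard errors from limma. Purple circles are pyramidal cells, P12 minus P0, and green squares interneurons, P10 minus P0. Squares are filled where the difference between the changes was called (18 rises and 15 falls). The genes were chosen by their change in pyramidal cells. The points of Npy and Gfra2 lie on opposite sides of 0. Neither was called in interneurons, at 0.71 for Npy (adjusted p = 0.000206 in limma) and -0.19 for Gfra2 (adjusted p = 0.141).

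Of 24 activity-regulated genes, the change was more positive in pyramidal cells for 13 and more negative for 1, and 2 rose and 3 fell in interneurons, where 4.44% of all genes rose and 2.48% fell. Egr1 stood at 10.30, 10.05 and 10.64 in IN P0 and 9.11, 8.87 and 9.01 in IN P10, a change of -1.34 beside the rise of 2.46 in pyramidal cells (difference 3.80 ± 0.22, adjusted p = 4.29e-08). Npas4 changed by 0.44 in interneurons and was not called there (difference 2.48 ± 0.18), and Nr4a1 by -0.40 (difference 2.91 ± 0.10). Igfbp4, which binds insulin-like growth factors, was called lower in interneurons (11.43, 11.44 and 11.31 at P0 and 10.56, 10.39 and 10.15 at P10) and higher in pyramidal cells (9.02, 8.91 and 8.84 and then 11.03, 10.93 and 10.73). The other genes called higher in pyramidal cells and lower in interneurons were Tshz1 and P3h2, chosen after their values were seen, with differences of 2.64 and 2.26. Sema3c went the opposite way, down in pyramidal cells and up by 1.71 in interneurons (difference -3.36 ± 0.23).

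Other groups were called in both populations, to be read against 4.44% of all genes higher and 2.48% lower in interneurons. Of 36 vesicle release genes 14 rose in IN P10 as in Pyr P12, and the difference was called for 4 in each direction. Voltage-gated potassium channel genes rose for 16 of 36 in interneurons, with 7 differences more positive and 3 more negative in pyramidal cells. Of 27 ribosomal protein genes, 4 fell in interneurons, beside 10 in pyramidal cells, and the difference was called for 0 in either direction. Their mean level went from 12.52 to 11.80 in interneurons and from 12.43 to 11.68 in pyramidal cells. Gabrd changed by 2.59 in interneurons and 2.61 in pyramidal cells, with a difference of 0.02 ± 0.11.

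Called genes were longer than others in the RefSeq table, as a description with no test. The median gene length was 38.4 kb for the 1192 genes called higher with a known length, 28.4 kb for 621 called lower and 20.6 kb for 11957 genes above background that were not called. The GC box GGGCGG, on either strand of the 250 bases before a start, occurred in 53.8% of windows of genes called higher, 61.7% of those called lower and 55.3% of those not called, and in 32.7% of all windows. The TATA box TATAAA occurred in 5.98%, 9.52% and 6.60% of these and in 12.4% of all windows.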

How the data were processed

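Sorted cells were hybridized to Affymetrix Mouse Gene 1.0 ST arrays. The values are log2 signals as deposited by the authors, who corrected, quantile-normalized and summarized the probes with RMA, so that a change in the total RNA of a cell is not seen. Software versions and the annotation release are not given in the sources used here, and the files state no build.

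Of 28192 probe sets, 22961 had a gene symbol and were tested, 21640 of them with a single symbol. These name 19937 genes, 954 with several probe sets, each given by the set with the highest mean over the 12 arrays, and 0 values were missing. One linear model over all 4 groups of 3 arrays was fitted with limma 3.58.1 under R 4.3.3 (8 residual degrees of freedom), with Benjamini-Hochberg adjustment over the 22961 probe sets. A gene was called at adjusted p under 0.05 and fold over 2, the study's thresholds. The study named SAM, run here as an alternative with all 20 relabelings. Background on an array was the level under which 95% of 1204 probe sets of olfactory and vomeronasal receptors lay. The difference between populations was the contrast of Pyr P12 minus Pyr P0 against IN P10 minus IN P0.

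The genes named are the 4 markers, the 20 most changed in each direction above background, the 4 most changed of each of 46 lists, whole lists for identity, layers, NMDA receptors and interneurons, and the paired forms, beside other list members given as examples, which were chosen after their values were seen. The most changed genes also had to show no overlap between the ages, which every called gene did. Members, lists and rules were chosen with earlier results of these data known, and 81 list entries were not measured. Lists are described by counts and medians with no test. The fit was tested on simulated data. Replicate letters were not used as pairs. Deviations of Pyr P0 and Pyr P12 arrays of the same letter correlated at 0.16, -0.18 and -0.18. With 3 arrays per group these values cannot exclude a pairing. That replicates came from separate animals or litters is known only from the word biological in the labels. The number of arrays limits the precision. Sequences are those of RefSeq for GRCm38.p6, which held an upstream window for 15562 of the genes, and 0 symbols changed on matching to it. Figures were drawn with matplotlib 3.10.9.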

Additional observations from a re-analysis of the deposited data

Results flagged for a closer look

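Of the genes named by rule, Egr1 and Igfbp4 were called in opposite directions in the 2 populations, with the difference between the changes called as well. For Egr1 the difference was 3.80 ± 0.22 (log2, SE; adjusted p = 4.29e-08 in limma), higher on all 3 P12 arrays of pyramidal cells and lower on all 3 P10 arrays of interneurons than at P0. For Igfbp4 it was 3.001 ± 0.14 (adjusted p = 7.2e-09), in the same directions. Egr1 belongs to the genes that dissociation can induce, and the part of dissociation in its values was not tested. The later ages of the populations, P12 and P10, cannot be told apart from the cell type in either difference.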

How the results depend on the processing

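Calls depended on the fold threshold. At a fold over 1.5, 2518 genes were called higher and 1522 lower, with no fold threshold 6835 and 4065, and at a fold over 4 they were 262 and 103. For the difference between the populations the same thresholds gave 1487, 4143 and 86 genes more positive and 1077, 2387 and 80 more negative in pyramidal cells. SAM, the 2 pyramidal groups alone, limma-trend with robust moderation, all probe sets and 1 probe set per gene each called the same 1195 and 623 genes. Each of these settings leaves the log2 difference of a gene as it was. An adjusted p under 0.01 in limma also gave 1195 and 623, so the fold threshold set the calls. The equal counts are therefore no separate support for them. With the replicate letter as a block (replicate block), which also leaves the log2 differences unchanged, the counts were again 1195 and 623. For the difference between the populations they were 517 and 450, and 1 of the 3 P0 arrays correlated best with its own letter. Centring each array gave 1141 and 670, a second quantile normalization 1110 and 700, and leaving out each array in turn 1180 to 1208 and 586 to 677. Of 263 named genes, 10 changed their call under some alternative (Actl6a, Atp5g1, Fh1, Hcn4, Maf, Rorb, Rpl13, Rps12, Slc4a4 and Sst), and none of the called ones changed its direction. The cause was not tested. Where an age was not above background, the fold is only a bound.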
